A study of Mus musculus with 203 samples.

Results

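The interleukin genes and their receptor genes were examined in RNA-seq of mouse macrophages. The members were all gene rows whose symbol begins with Il and a digit, without Il4i1, Il4ra, Il2rg and Il13ra1, and there were 80 of them among the 25094 genes of the RAW264.7 table. They comprised 38 ligands, 35 receptor chains, 5 inhibitors (the receptor antagonist Il1rn, the binding proteins Il18bp and Il22ra2 and the decoy receptors Il1r2 and Il13ra2) and 2 genes that are none of these, Il4i1b and Il1bos. The table of the second experiment, with bone marrow-derived macrophages (BMDMs) from Gps2 KO and WT mice, listed 49 of the 80 among 16478 genes. That table holds comparisons between groups and no values per library, so all results below are from RAW cells. RAW264.7 (RAW) is a mouse macrophage cell line of the BALB/c strain. All cells carried a stably integrated lentiviral shRNA after puromycin selection, against GFP (shGFP, the control) or against Kdm1a (shKDM1A), with 1 shRNA per target. Each line was either left without interleukin 4 (IL4) or given 20 ng/ml of IL4 for 6 h, and each of the 4 groups had 4 libraries. The comparisons address how IL4 changes gene expression in macrophages and how the histone demethylase KDM1A bears on that response.

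Interleukins are secreted proteins through which immune cells signal to each other and to tissue cells. Most act through paired receptor chains that are shared within families. The IL6 family shares gp130 (Il6st), several IL1 family receptors share the accessory chain Il1rap, and several IL10-type receptors share Il10rb. Chains of the IL1 and IL17 receptor families signal through adaptor proteins to NF-kB, while most other interleukin receptors signal through Janus kinases (JAK) and STAT factors. Macrophages are both a source and a target of interleukins, and IL4, which activates STAT6 in them, drives their alternative activation.

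The library totals ran from 17554721 to 27782568 tags, and the values are on a log2 scale. Weakly expressed genes differed little between libraries on this scale, and their changes may be understated. Kdm1a, the targeted gene, had values of 11.13 to 11.23 in the 4 shGFP libraries without IL4 and 11.07 to 11.12 with IL4, and of 10.23 to 10.36 and 10.28 to 10.34 in the shKDM1A libraries. The difference of shKDM1A from shGFP cells was -45.8% without IL4 and -42.0% with IL4. Of 8 macrophage markers, 7 had values of 9.52 to 17.2, and Mertk lay near -1. All 7 differed between the lines in both states, 5 higher and 2 lower in shKDM1A cells, such as Itgam (0.41 without IL4), Fcgr1 (-0.45 without IL4) and Lyz2 (0.68 with IL4). With IL4 in shGFP cells 2 rose and 2 fell, among them Adgre1 (1.24) and Lyz2 (-0.53), and the part of these shifts in the members' values was not tested. Of 22 markers of T cells, B cells, neutrophils, mast cells, dendritic cells and fibroblasts, 11 were listed at 0 in every library and 3 had values above 1 throughout, Zbtb46 at up to 4.22, Xcr1 at up to 2.04 and S100a8 at up to 1.26. The 4 shKDM1A libraries with IL4 fell into pairs: the median difference over genes was 0.0441 between libraries 1 and 3 and 0.0392 between libraries 2 and 4, against 0.0536 to 0.0561 for the other pairings. Calls of members that are lost or gained when either pair is left out are given below.

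Most interleukin genes had low values or were listed at 0. The filter asked for 4 or more libraries with a value of 1 or higher. It was passed by 28 of the 80 members, and these 28 exceeded 1 in all 16 libraries. They were 17 of the 35 receptor chains, 7 of the 38 ligands, 3 of the 5 inhibitors and Il4i1b. Another 28 members were listed at 0 in every library, 19 of them ligands and 8 receptors, among them Il2, Il13, Il12b and Il2ra. Such a 0 was not read as a level, and it does not place these genes above members with negative values. The remaining 24 lay between -2.27 and 1.03. These included the inflammatory cytokines Il1b, at 0.83 to 0.89, and Il1a, at 0.54 to 0.56, and the anti-inflammatory Il10, at 0.95 to 1.03. Il10 lay at 0.99 to 1.03 in the shKDM1A libraries with IL4 and at 0.95 to 0.97 in all others. Il4 itself and Il6 stayed below -2.26 in all libraries.

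**Figure D1:**
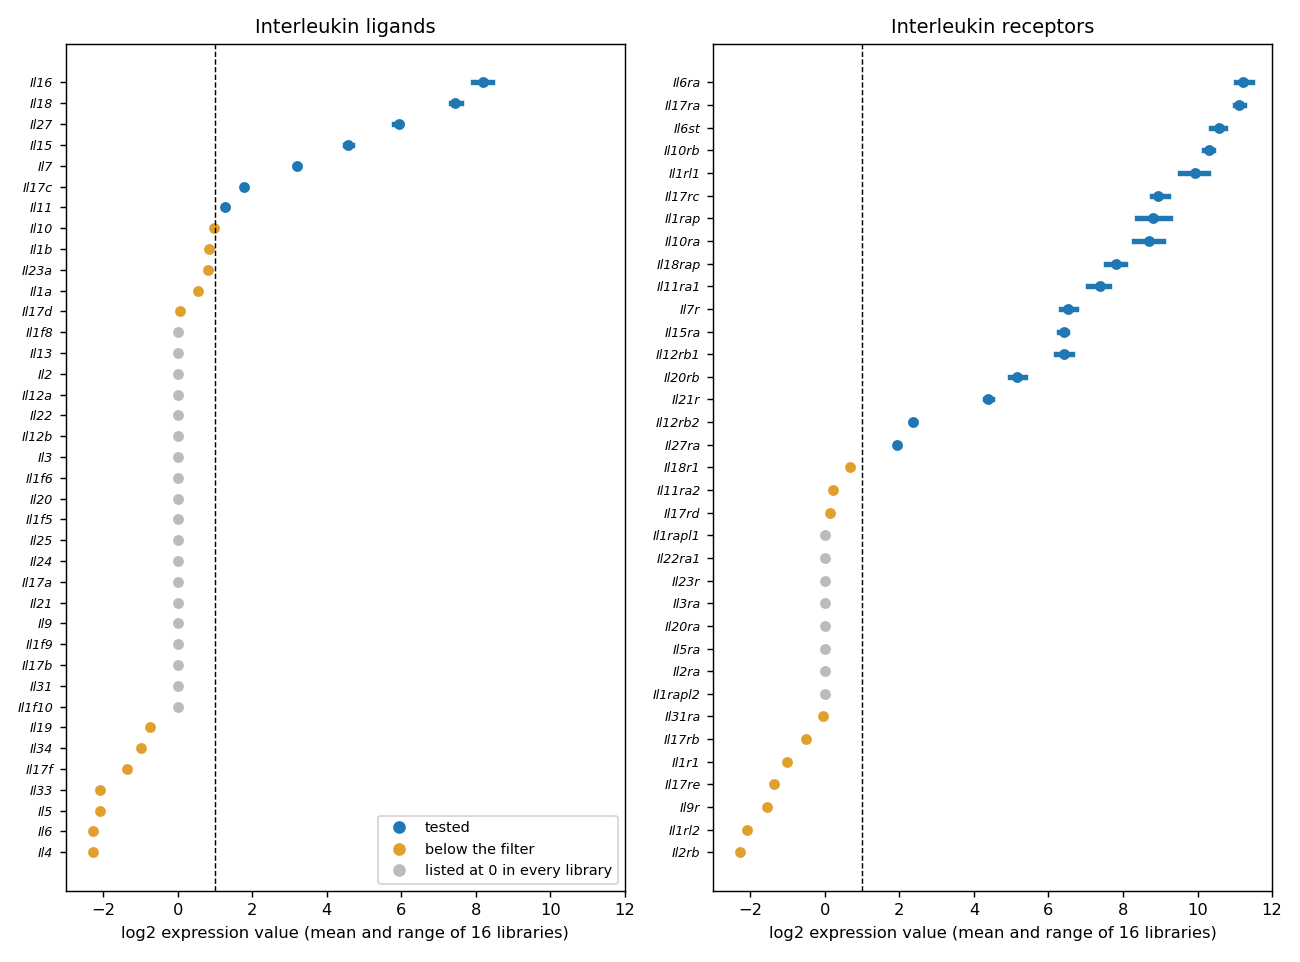
Log2 expression values of the 38 ligands (left) and 35 receptors (right), with the mean (point) and range (bar) of 16 RAW libraries. The dashed line marks the filter at 1. Values are not divided by gene length, so the order does not rank the genes, but 17 receptors and 7 ligands lie right of the line.

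Levels of different genes were compared only after division by the gene's length, as log2 level per kb in shGFP cells without IL4. The receptors with the highest level were Il6ra at 9.32, which binds IL6, Il10rb at 9.31, the shared chain of IL10-type receptors, and Il17ra at 9.23, the shared chain of the IL17 receptors. The level of Il6ra exceeded that of 78.2% of all genes tested. The chain Il6st, which pairs with Il6ra, followed at 8.18, and Il17rc, which pairs with Il17ra, at 7.63. Il27ra and Il12rb2 were lowest among the tested receptors, at 0.54 and 0.82.

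Among the ligands, Il18, an IL1 family cytokine, had the highest level per kb, 7.05, above 41.3% of all genes tested. It was followed by Il16, a chemoattractant for CD4+ cells, at 5.97, and Il27, a subunit of IL27, at 5.86. Of the annotated exon bases of Il27, 10.1% overlap Apobr on the opposite strand, and of those of Il7 3.1% overlap Gm16685 there, and the counting did not separate strands. Il15, which sustains natural killer and memory T cells, stood at 4.21 and the other 3 tested ligands, Il17c, Il7 and Il11, at 0.40 to 2.27. The inhibitor Il1rn, the soluble antagonist of the IL1 receptor, stood at 8.83, higher per kb than every ligand. The ligands with which it competes, Il1a and Il1b, were below the filter.

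In shGFP cells, IL4 changed 13 of the 28 tested members (9 higher and 4 lower, by limma at an adjusted p under 0.05), or 46.4%, where 26.9% of all 12905 genes tested were called (13.1% higher and 13.7% lower). The median change of the 28 was 0.01 on the log2 scale and that of all genes was -0.00. Of the 17 receptors, 6 rose and 3 fell. Of the 7 ligands 1 rose, and among the 3 inhibitors Il13ra2 rose and Il1rn fell. The changes were small: only that of Il1rn reached 0.5 on the log2 scale. In such bulk samples, a change in RNA per cell and a change in the share of cells that express a gene cannot be told apart.

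Il1rn (chr2:24200891-24207011, + strand, mm9) fell most. Its values were 10.14, 10.13, 10.14 and 10.13 in shGFP cells and 9.61, 9.60, 9.61 and 9.62 after IL4. In shKDM1A cells they were 9.60, 9.70, 9.68 and 9.73 without IL4 and 9.22, 9.34, 9.38 and 9.48 with IL4. All libraries with IL4 lay below those without in each line, and the shGFP libraries were tighter than the shKDM1A libraries. In shGFP cells the change with IL4 was -30.4%, or -0.52 on the log2 scale (SE 0.04, limma adjusted p = 3.8e-08).

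Il1rl1 (chr1:40496474-40522259, + strand, mm9) encodes ST2, the receptor for IL33. Its values in shGFP cells were 9.92, 9.90, 9.88 and 9.88 without IL4 and 10.27, 10.24, 10.20 and 10.28 with IL4. In shKDM1A cells they were 9.52, 9.60, 9.57 and 9.55 without and 10.08, 10.06, 9.95 and 10.06 with IL4. The 4 groups did not overlap: the order from low to high was shKDM1A, shGFP, shKDM1A with IL4 and shGFP with IL4. The IL4 response in shGFP cells was 0.35 (SE 0.03, limma adjusted p = 6.5e-08). Its ligand Il33 lay at -2.09 to -2.08 in all libraries.

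Il1rap (chr16:26581791-26717834, + strand, mm9), the accessory chain that ST2 and the IL1 receptor need to signal, had the largest rise among the members in shGFP cells. It went from 8.51, 8.45, 8.54 and 8.37 in shGFP cells to 8.84, 8.92, 8.84 and 8.99 with IL4, and from 8.71, 8.61, 8.68 and 8.69 in shKDM1A cells to 9.16, 9.25, 8.98 and 9.16. Groups without and with IL4 did not overlap in either line. In shGFP cells the change was 0.43 (SE 0.05, limma adjusted p = 6.9e-06). Of the annotated exons of Il1rap, 4.9% overlap a gene on the opposite strand, and the counting did not separate strands.

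**Figure D2:**
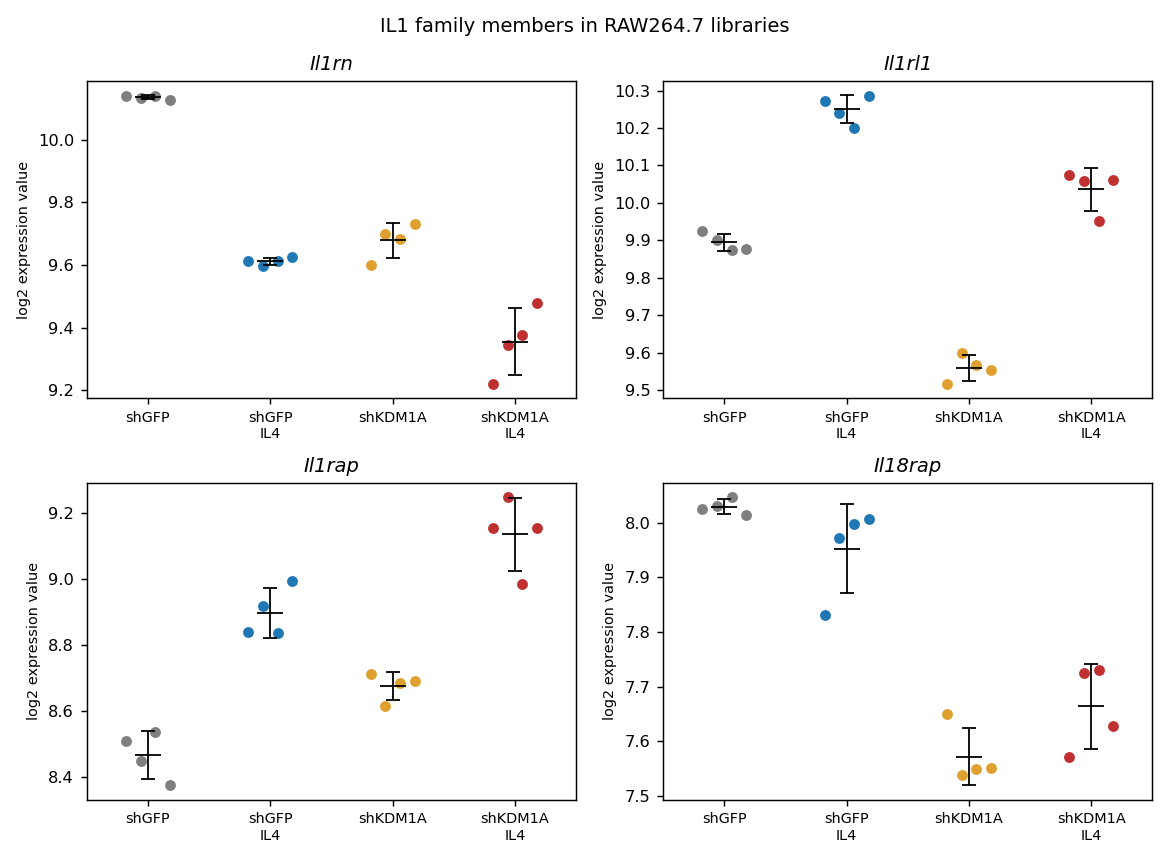
Log2 expression values of 4 IL1 family genes in each RAW library (points), with the group mean and SD (n = 4 libraries). Il1rn was lowest in shKDM1A cells with IL4 and highest in shGFP cells without it, Il1rl1 and Il1rap were higher with IL4 in both lines, and Il18rap was separated by the shRNA.

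The promoters of these genes and of Il18rap, described below, are shown because they carried the largest changes, as the 250 bases before an annotated start in RefSeq (build GRCm38.p6, + strand). Capitals mark matches to TTC and GAA with 4 bases between them, the spacing that STAT6 prefers, and to GAGGAAGT, a core bound by PU.1 and related ETS factors. Il1rn is shown at chr2:24345041-24345290, Il18rap at chr1:40515112-40515361, Il1rl1 at its distal start, chr1:40429320-40429569, and its proximal start, chr1:40439379-40439628, and Il1rap at chr16:26581455-26581704.
Il1rn: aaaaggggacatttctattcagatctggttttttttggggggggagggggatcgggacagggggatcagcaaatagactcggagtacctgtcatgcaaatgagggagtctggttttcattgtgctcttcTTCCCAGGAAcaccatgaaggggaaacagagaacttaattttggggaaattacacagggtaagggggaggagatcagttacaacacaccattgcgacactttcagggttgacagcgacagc
Il18rap: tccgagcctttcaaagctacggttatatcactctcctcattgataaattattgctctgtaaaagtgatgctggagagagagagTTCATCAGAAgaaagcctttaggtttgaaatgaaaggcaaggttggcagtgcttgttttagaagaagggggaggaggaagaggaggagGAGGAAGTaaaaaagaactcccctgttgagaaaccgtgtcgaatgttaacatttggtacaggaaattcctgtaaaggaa
Il1rl1 distal: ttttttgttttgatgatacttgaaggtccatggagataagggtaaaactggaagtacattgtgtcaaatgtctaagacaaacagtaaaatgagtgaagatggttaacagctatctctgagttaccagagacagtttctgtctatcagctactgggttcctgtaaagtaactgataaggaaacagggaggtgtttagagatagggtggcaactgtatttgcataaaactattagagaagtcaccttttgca
Il1rl1 proximal: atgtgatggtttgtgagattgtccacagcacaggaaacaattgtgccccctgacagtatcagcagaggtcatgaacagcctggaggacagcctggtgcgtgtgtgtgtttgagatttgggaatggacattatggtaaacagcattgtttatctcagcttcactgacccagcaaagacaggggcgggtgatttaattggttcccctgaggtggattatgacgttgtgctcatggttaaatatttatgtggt
Il1rap: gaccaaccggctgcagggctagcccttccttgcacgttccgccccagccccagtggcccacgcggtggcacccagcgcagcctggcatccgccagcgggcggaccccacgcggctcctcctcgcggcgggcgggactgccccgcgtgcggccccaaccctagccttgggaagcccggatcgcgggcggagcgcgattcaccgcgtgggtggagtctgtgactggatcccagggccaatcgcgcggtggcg

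Over the wider window of 250 bases before to 50 after the start, the promoter set used here held 20 of the 28 tested members, with 28 windows in all. Il7, Il10ra, Il10rb, Il12rb1, Il15, Il17ra, Il27 and Il27ra were missing from that set, although each has a RefSeq transcript. The form with 4 bases between TTC and GAA, searched on both strands, was found in 6 of the 28 windows (21.43%) and in 6.95% of all 32851 promoter windows. The 6 windows belong to 5 genes, Il1rn, Il18rap, Il18, Il4i1b and Il11, since 2 overlapping Il1rn windows hold the same match. The remaining Il1rn window, at another start, chr2:24336610-24336909, holds none. In Il1rn the match begins 121 bases before the start shown, and in Il18rap 167 bases before. GAGGAAGT was found in 1 window, that of Il18rap, against 3.2% of all windows. The form with 3 bases between them, which other STAT factors bind, was found in the windows of Il12rb2 and Il7r and in 8.3% of all. A match is a description of these letters and not a measured site, and genes with and without a match were among those that rose, fell or were not called.

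Other receptors that rose with IL4 in shGFP cells belong to the IL10 and IL6 systems. Il20rb, a chain of the receptors for IL20 and related cytokines, went from 4.96, 4.97, 5.00 and 5.01 to 5.24, 5.36, 5.33 and 5.23, a change of 0.30 (SE 0.03, limma adjusted p = 3e-06). Il6ra rose from 11.07, 11.10, 11.09 and 11.04 to 11.33, 11.34, 11.39 and 11.27, a change of 0.26 (SE 0.05, limma adjusted p = 0.0015). These groups did not overlap. Il10ra, the chain that binds IL10, went from 8.77, 8.76, 8.78 and 8.86 to 9.07, 9.01, 8.92 and 9.05, a change of 0.22 (SE 0.05, limma adjusted p = 0.0038). Its partner Il10rb went from 10.23, 10.18, 10.19 and 10.17 to 10.39, 10.41, 10.37 and 10.40, a change of 0.20 (SE 0.02, limma adjusted p = 1.7e-06). For Il10rb, 15.0% of the annotated exon bases are shared with Ifnar2 on the same strand.

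The 3 receptors that fell in shGFP cells belong to the IL12, IL17 and common gamma chain families. Il12rb1, shared by the receptors for IL12 and IL23, went from 6.41, 6.40, 6.45 and 6.48 to 6.22, 6.23, 6.19 and 6.29, a change of -0.20 (SE 0.03, limma adjusted p = 0.00017). Il17ra went from 11.22, 11.21, 11.19 and 11.24 to 11.04, 11.07, 11.08 and 11.03, a change of -0.16 (SE 0.03, limma adjusted p = 0.0003). Il7r, a chain of the IL7 and TSLP receptors, went from 6.59, 6.66, 6.57 and 6.62 to 6.41, 6.53, 6.45 and 6.47, a change of -0.14 (SE 0.04, limma adjusted p = 0.0067). None of these groups overlapped.

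Among ligands, Il18 alone was called, at 7.46, 7.34, 7.44 and 7.41 without and 7.61, 7.49, 7.60 and 7.50 with IL4. Its change of 0.14 (SE 0.05) had a limma adjusted p of 0.048, and the call was lost in 13 of 25 alternative settings. Il16 had values of 8.45, 8.35, 8.36 and 8.30 without and 8.27, 8.24, 8.25 and 8.29 with IL4, a difference of -0.10 (SE 0.04) that was not called (limma adjusted p = 0.059). Il27 had 6.00, 5.98, 6.01 and 5.97 without and 5.90, 5.95, 5.93 and 5.98 with IL4, groups that overlap. Il15, Il7, Il17c and Il11 differed by -0.02 to 0.02.

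The decoy receptor Il13ra2, which binds IL13 without the usual signal, rose by 0.15 (SE 0.02, limma adjusted p = 0.00018). Its values were 4.57 to 4.68 without and 4.73 to 4.81 with IL4. Il18bp, which neutralizes IL18, stayed at 3.00 to 3.05 in shGFP cells and was not called. Il4i1b rose by 0.35 (SE 0.04, limma adjusted p = 1.4e-05), from 8.21, 8.13, 8.23 and 8.23 to 8.61, 8.56, 8.57 and 8.45. This row (chr7:52071740-52096173, + strand, mm9) overlaps the row of Il4i1 (chr7:52091658-52096179) and that of Nup62 on the same strand, so its reads cannot be assigned to it with certainty.

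**Figure D3:**
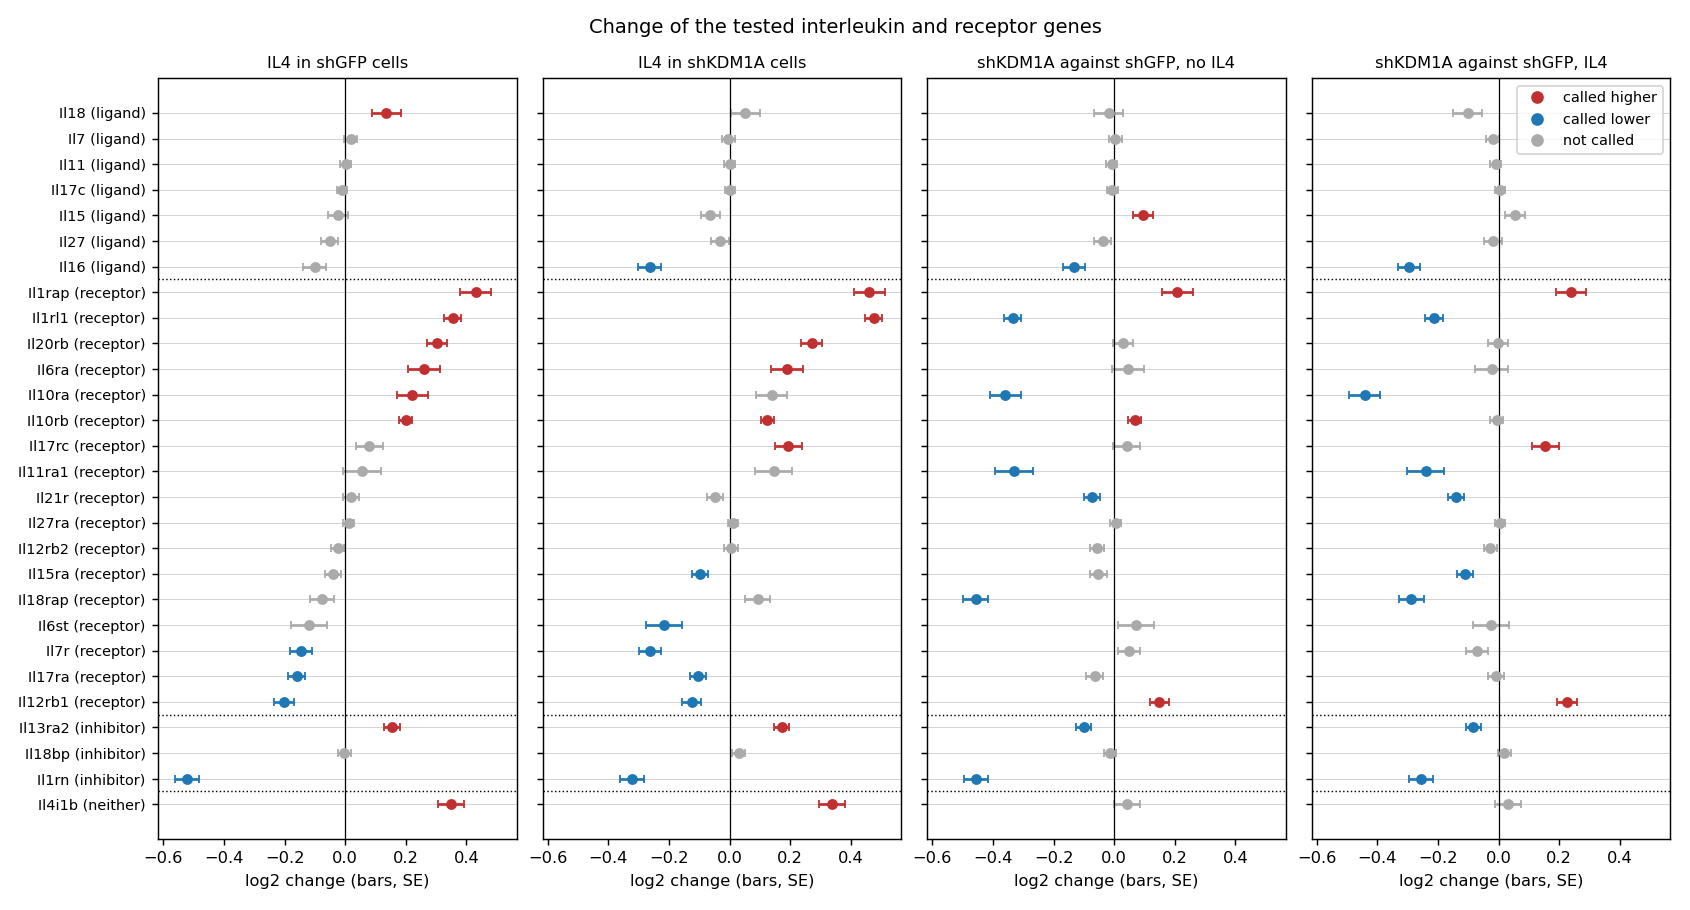
Log2 change (points) with SE (bars) of the 28 tested members, in rows by role, for 4 comparisons (columns). Red is called higher, blue called lower and grey not called. The IL4 columns share the rise of Il1rap, Il1rl1 and Il20rb and the fall of Il1rn, and the shKDM1A columns share the lower values of Il18rap, Il10ra, Il1rl1 and Il1rn.

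In shKDM1A cells IL4 changed 15 of the 28 members (8 higher and 7 lower), or 53.6%, against 27.1% of all genes tested (13.6% higher and 13.5% lower). The 2 IL4 comparisons share no library, and 11 of the 28 members were called in both, 7 higher and 4 lower, with none in opposite directions. Of all genes, 14.4% were called in both in the same direction and 0.504% in opposite directions. Called in shGFP cells and not in shKDM1A cells were Il10ra and Il18, and called in shKDM1A cells and not in shGFP cells were Il6st, Il16, Il17rc and Il15ra. For Il10ra this depended on the setting: its change in shKDM1A cells was 0.14 (SE 0.05, limma adjusted p = 0.054) and passed the threshold in 8 alternative settings. Whether the responses of these 6 differ is tested below.

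The rise of Il1rl1 in shKDM1A cells was 0.48 (SE 0.03, limma adjusted p = 1.9e-09) and that of Il1rap 0.46 (SE 0.05, adjusted p = 3.5e-06 in the same fit). Il1rn fell by 0.32 on the log2 scale (SE 0.04, limma adjusted p = 1.2e-05). Il4i1b rose by 0.34, Il20rb by 0.27, Il13ra2 by 0.17 and Il10rb by 0.12. In shKDM1A cells Il20rb had 5.01, 5.02, 4.98 and 5.04 without IL4 and 5.38, 5.23, 5.25 and 5.28 with IL4, nearly the values of the shGFP cells. Il4i1b had 8.15, 8.30, 8.29 and 8.23 without and 8.61, 8.67, 8.53 and 8.50 with IL4. Neither pair of groups overlapped.

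The ligand Il16 (chr7:90791329-90884049, - strand, mm9) fell by 0.26 on the log2 scale in shKDM1A cells (SE 0.04, limma adjusted p = 5.4e-05). Its values were 8.21, 8.15, 8.35 and 8.22 without and 7.96, 7.94, 8.03 and 7.94 with IL4, which do not overlap. Il7r went from 6.59, 6.74, 6.63 and 6.67 to 6.36, 6.40, 6.48 and 6.34, a change of -0.26 (SE 0.04, limma adjusted p = 3.6e-05). Of the annotated Il16 exon bases, 17.4% overlap genes on the opposite strand, mainly Stard5, whose reads the counting did not separate.

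Several receptor values in IL4-treated shKDM1A cells followed the library pairs. Il6ra had 11.07, 11.13, 11.15 and 11.13 without IL4 but 11.20, 11.46, 11.16 and 11.42 with it, so libraries 2 and 4 lay above 1 and 3. Its change was 0.19 (SE 0.05, limma adjusted p = 0.013), 0.32 without libraries 1 and 3, and 0.06 (adjusted p = 0.19) without libraries 2 and 4. In shGFP cells Il6st, the partner of Il6ra, had 10.56, 10.74, 10.67 and 10.51 without and 10.43, 10.48, 10.50 and 10.59 with IL4, which overlap. In shKDM1A cells it had 10.60, 10.73, 10.75 and 10.68 without and 10.39, 10.59, 10.35 and 10.58 with IL4. Its change of -0.22 (SE 0.06, limma adjusted p = 0.012) became -0.11 (adjusted p = 0.23) without libraries 1 and 3. What separates the pairs was not tested.

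The same omission of libraries 1 and 3 ended 4 further calls. Il17rc, called at 0.19 (SE 0.05, limma adjusted p = 0.004), was at 0.14 (adjusted p = 0.062) without them. Il12rb1 went from -0.13 to -0.10 (adjusted p = 0.078), Il17ra from -0.10 to -0.06 (adjusted p = 0.17) and Il15ra from -0.10 to -0.08 (adjusted p = 0.12). With those libraries left out, 11 members were called in shKDM1A cells, 8 higher and 3 lower, among them Il18bp at 0.06 (adjusted p = 0.049), which is not called with all libraries. Without libraries 2 and 4, Il10ra (0.20, adjusted p = 0.019) and Il11ra1 (0.22, adjusted p = 0.0074) were called for IL4 in shKDM1A cells. Il17ra in shKDM1A cells had 11.17, 11.20, 11.10 and 11.12 without and 11.01, 11.09, 10.99 and 11.09 with IL4.

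The difference between the 2 IL4 responses, shKDM1A minus shGFP, was called for 1 of 28 members, or 3.57%, where 6.13% of all genes were called (3.56% higher and 2.57% lower). At an unadjusted p under 0.05 there were 6 members. The member called was Il1rn, whose fall was smaller in shKDM1A cells by 0.20 (SE 0.06, limma adjusted p = 0.046). The call was lost in 14 of 24 alternative settings, with adjusted p from 0.0043 to 0.14, and the value stayed between 0.14 and 0.26. Among receptors the largest differences were Il18rap at 0.17 (SE 0.06, limma adjusted p = 0.095) and Il1rl1 at 0.12 (SE 0.04, adjusted p = 0.082), and among ligands Il16 at -0.16 (SE 0.05, adjusted p = 0.078). Il10ra differed by -0.08 (SE 0.07, limma adjusted p = 0.54) and Il18 by the same (SE 0.07, adjusted p = 0.51). For Il6st, Il17rc and Il15ra the differences were -0.10, 0.11 and -0.06, and none was called (adjusted p = 0.54, 0.31 and 0.39). Without libraries 2 and 4 of the shKDM1A group with IL4, the 1 member called was instead Il6ra, at -0.20 (adjusted p = 0.0064).

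Without IL4, 12 of the 28 members differed between shKDM1A and shGFP cells (4 higher and 8 lower), or 42.9%, against 38.2% of all genes tested (19.7% higher and 18.4% lower). Under quantile normalization the split was 2 higher and 10 lower. With IL4, 12 members differed as well (3 higher and 9 lower), against 40.7% of all genes (20.9% higher and 19.8% lower). In both states 10 of the 28 members were called in the same direction, 2 higher and 8 lower, and none in opposite directions. Of all genes, 25.1% were called in the same direction in both states and 0.511% in opposite directions. The median differences of the 28 were -0.01 without and -0.02 with IL4.

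Il18rap (chr1:40572207-40608550, + strand, mm9) is the accessory chain of the IL18 receptor. Its values were 8.02, 8.03, 8.05 and 8.01 in shGFP cells and 7.65, 7.54, 7.55 and 7.55 in shKDM1A cells. With IL4 they were 7.83, 7.97, 8.00 and 8.01 in shGFP cells and 7.57, 7.72, 7.73 and 7.63 in shKDM1A cells. The shKDM1A values lay below the shGFP values in both states, with a difference of -27.1% without IL4, or -0.46 on the log2 scale (SE 0.04, limma adjusted p = 1.6e-07). With IL4 the difference was -0.29 (SE 0.04, limma adjusted p = 3.1e-05). IL4 itself gave no call for Il18rap in either line, with -0.08 in shGFP and 0.09 in shKDM1A cells. The binding chain Il18r1 stayed at 0.66 to 0.72 in all libraries, below the filter.

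Il10ra (chr9:45061920-45077232, - strand, mm9) had 8.54, 8.49, 8.30 and 8.40 in shKDM1A cells without IL4 and 8.57, 8.54, 8.69 and 8.48 with IL4. These lie below the shGFP values in each state. The differences were -0.36 (SE 0.05, limma adjusted p = 3e-05) without and -0.44 (SE 0.05, limma adjusted p = 3.2e-06) with IL4, the latter the largest of the 28. The partner chain Il10rb was at 10.31, 10.22, 10.24 and 10.27 in shKDM1A cells without IL4, a difference of 0.07 (SE 0.02, limma adjusted p = 0.017) whose groups overlapped and whose call was lost in 4 of 25 settings (down to 0.04, adjusted p = 0.14). With IL4 it had 10.36, 10.38, 10.40 and 10.40 in shKDM1A cells and differed by -0.01.

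The IL1 family members Il1rn and Il1rl1 were lower in shKDM1A cells in both states. Il1rn differed by -0.46 without IL4 (SE 0.04, limma adjusted p = 1.1e-07) and -0.26 with IL4 (SE 0.04, limma adjusted p = 7.4e-05). For Il1rl1 the differences were -0.33 (SE 0.03, limma adjusted p = 7.8e-08) and -0.21 (SE 0.03, limma adjusted p = 1.4e-05). Il1rap, the partner of ST2, went the other way, at 0.21 (SE 0.05, limma adjusted p = 0.0039) and 0.24 (SE 0.05, limma adjusted p = 0.0013), although its IL4-treated groups overlapped.

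Of the other receptors, Il11ra1, the IL11 receptor, had 7.48, 7.61, 7.39 and 7.53 in shGFP cells and 7.23, 7.06, 7.20 and 7.18 in shKDM1A cells, a difference of -0.33 (SE 0.06, limma adjusted p = 0.00043). With IL4 the values were 7.58, 7.51, 7.61 and 7.53 in shGFP cells and 7.42, 7.10, 7.36 and 7.37 in shKDM1A cells, a difference of -0.24 (SE 0.06, limma adjusted p = 0.005). Il11ra1 has a nearly identical copy, Il11ra2, listed at 0.20 to 0.22, and reads of the pair may be divided between them. Il12rb1 was higher in shKDM1A cells, at 6.63, 6.55, 6.52 and 6.63 without IL4 and 6.38, 6.47, 6.47 and 6.50 with it. Its differences were 0.15 (SE 0.03, limma adjusted p = 0.0016) and 0.23 (SE 0.03, limma adjusted p = 3.4e-05).

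Il21r, the IL21 receptor, had 4.50, 4.38, 4.46 and 4.40 in shGFP cells and 4.31, 4.38, 4.40 and 4.35 in shKDM1A cells without IL4, which overlap. It differed by -0.07 (SE 0.03, limma adjusted p = 0.032), a call lost in 7 of 25 settings. With IL4 it had 4.45, 4.47, 4.44 and 4.45 in shGFP cells and 4.31, 4.33, 4.29 and 4.32 in shKDM1A cells, a difference of -0.14 (SE 0.03, limma adjusted p = 0.00031). Il15ra, which presents IL15 to other cells, was called with IL4, at 6.43, 6.43, 6.46 and 6.48 in shGFP cells and 6.29, 6.30, 6.34 and 6.42 in shKDM1A cells. That difference, -0.11 (SE 0.03, limma adjusted p = 0.0037), had an adjusted p of 0.052 without libraries 1 and 3 of the latter group. Without IL4 the Il15ra values were 6.43, 6.51, 6.51 and 6.50 in shGFP cells and 6.44, 6.41, 6.43 and 6.47 in shKDM1A cells, which overlap. That difference, -0.05, was called under quantile normalization, at -0.09 (adjusted p = 0.013).

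Il17rc was called higher in shKDM1A cells with IL4, at 8.94, 8.99, 8.86 and 8.97 in shGFP cells and 9.20, 9.02, 9.09 and 9.06 in shKDM1A cells. The difference of 0.15 (SE 0.05, limma adjusted p = 0.012) was 0.10 (adjusted p = 0.15) without libraries 1 and 3. Without IL4, Il17rc had 8.82, 8.94, 8.77 and 8.91 in shGFP cells and 8.94, 8.94, 8.80 and 8.92 in shKDM1A cells, and was not called. Il6ra with IL4 differed by -0.02 (SE 0.05, limma adjusted p = 0.76) in all libraries, by 0.11 (adjusted p = 0.021) without libraries 1 and 3 and by -0.15 (adjusted p = 0.0017) without 2 and 4, so its direction depended on the pair. Il17ra, Il7r, Il6st, Il20rb, Il12rb2 and Il27ra were called in neither state as fitted. Il12rb2 without IL4, at -0.06, was called with a trended prior (adjusted p = 0.0099) and without library 1 of shGFP cells (-0.07, adjusted p = 0.019) or library 1 or 3 of IL4-treated shGFP cells. Il7r with IL4, at -0.07, was called without library 3 of IL4-treated shKDM1A cells (-0.10, adjusted p = 0.042). For Il17ra without IL4, a difference of -0.06 was called when either pair of the IL4-treated shKDM1A libraries was left out of the fit (adjusted p = 0.039 and 0.041).

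**Figure D4:**
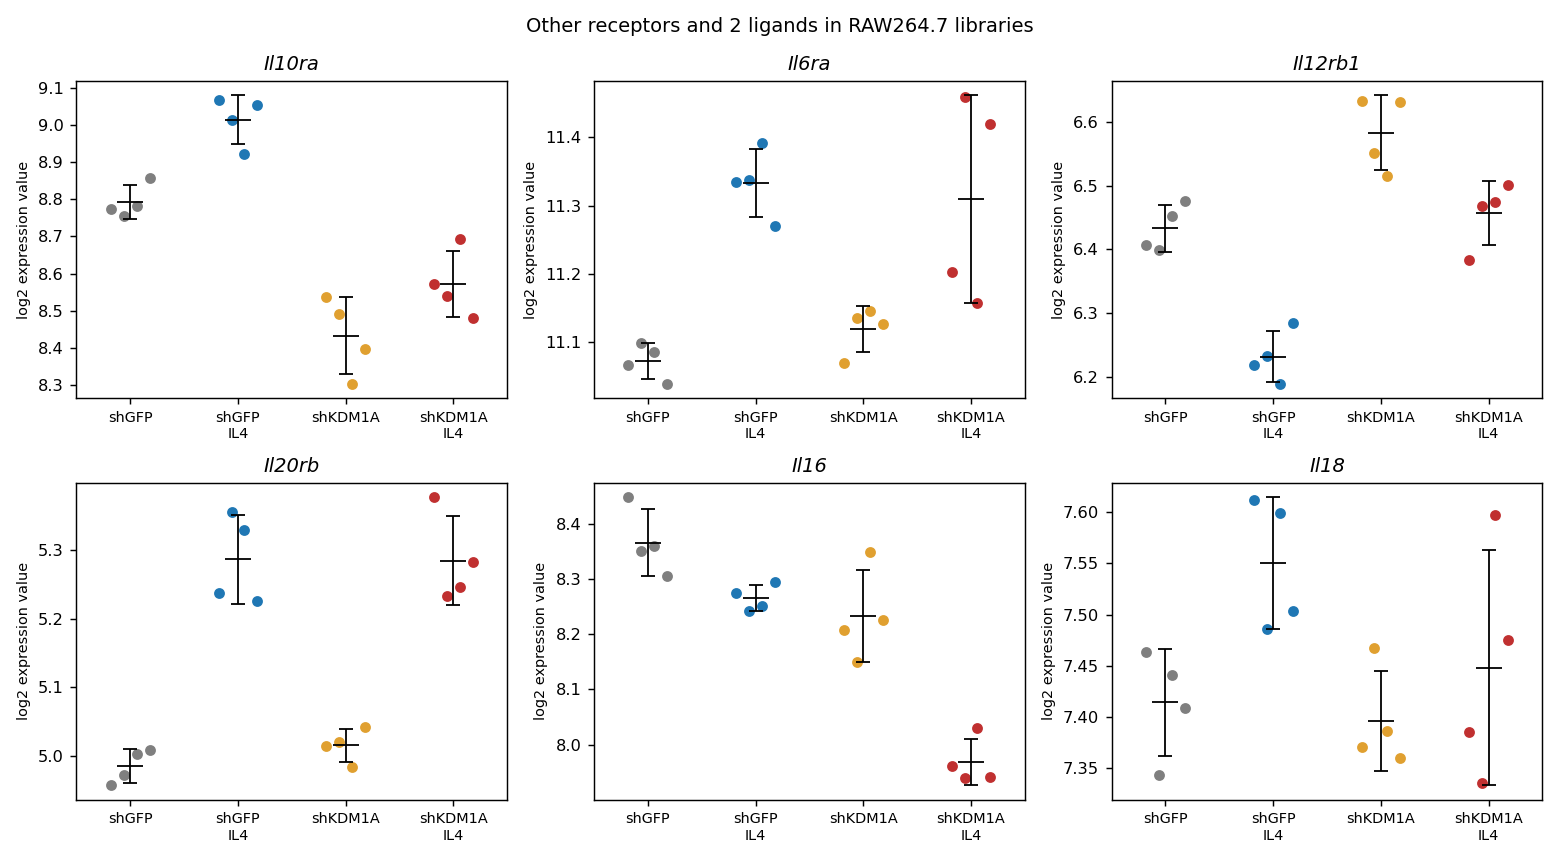
Log2 expression values of 4 receptors and 2 ligands in each RAW library (points), with the group mean and SD (n = 4 libraries). Il10ra was lower in shKDM1A cells in both states, Il6ra in IL4-treated shKDM1A cells fell into a lower and a higher pair, and Il16 was lowest in shKDM1A cells with IL4.

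Of the ligands, Il16 was lower in shKDM1A cells by 0.13 on the log2 scale without IL4 (-0.13, SE 0.04, limma adjusted p = 0.01), where the groups overlapped. With IL4 the difference was -0.30 (SE 0.04, limma adjusted p = 9.2e-06) and the groups did not overlap. Il15 was called without IL4, at 4.57, 4.57, 4.53 and 4.56 in shGFP cells and 4.65, 4.63, 4.68 and 4.64 in shKDM1A cells. That difference, 0.09 (SE 0.03, limma adjusted p = 0.032), was lost in 9 of 25 settings. With IL4, Il15 had 4.55, 4.57, 4.51 and 4.51 in shGFP cells and 4.69, 4.50, 4.53 and 4.63 in shKDM1A cells. Il18, with 7.37, 7.47, 7.39 and 7.36 in shKDM1A cells without IL4 and 7.39, 7.34, 7.60 and 7.48 with it, was called in neither state with all libraries. With IL4 its difference was -0.10, and it was called at -0.14 (adjusted p = 0.033) without libraries 1 and 3 of the IL4-treated shKDM1A group and at -0.15 (adjusted p = 0.0099) without its library 3. Il27, with 5.94, 5.95, 5.97 and 5.95 without and 5.81, 5.95, 5.97 and 5.95 with IL4 in shKDM1A cells, was not called either, nor were Il7, Il11 and Il17c. Under quantile normalization, Il27 without IL4 went from -0.04 to -0.09 and was called (adjusted p = 0.019).

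The inhibitor Il13ra2 was lower in shKDM1A cells without IL4, at 4.54, 4.52, 4.49 and 4.52 against 4.57, 4.68, 4.62 and 4.60, a difference of -0.10 (SE 0.02, limma adjusted p = 0.0041). With IL4 it had 4.68, 4.71, 4.66 and 4.69 against 4.81, 4.79, 4.73 and 4.74, a difference of -0.08 (SE 0.02, limma adjusted p = 0.013). The second call was lost without libraries 1 and 3 (-0.07, adjusted p = 0.11). Over the 4 comparisons, which share libraries, 21 of the 28 members were called at least once and 7 in none, where 63.3% of all genes were called at least once. Of the receptors 15 of 17 were called at least once, and of the ligands 3 of 7.

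A cluster of 6 IL1 receptor family genes lies on chromosome 1 and spans 465.6 kb on the + strand. Its order is Il1r2, Il1r1, Il1rl2, Il1rl1, Il18r1 and Il18rap. Outside it lie Il1rap, on chromosome 16, and Il1rapl1 and Il1rapl2, on the X chromosome. Of the 6 cluster genes, only Il1rl1 and Il18rap passed the filter. The IL1 receptor Il1r1 stayed near -1.01, the decoy Il1r2 and the IL36 receptor Il1rl2 near -2.09, and Il18r1, whose start lies 26.4 kb beyond that of Il1rl1, at 0.66 to 0.72. Both expressed genes were lower in shKDM1A cells, but IL4 raised Il1rl1 in both lines and gave no call for Il18rap.

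**Figure D5:**
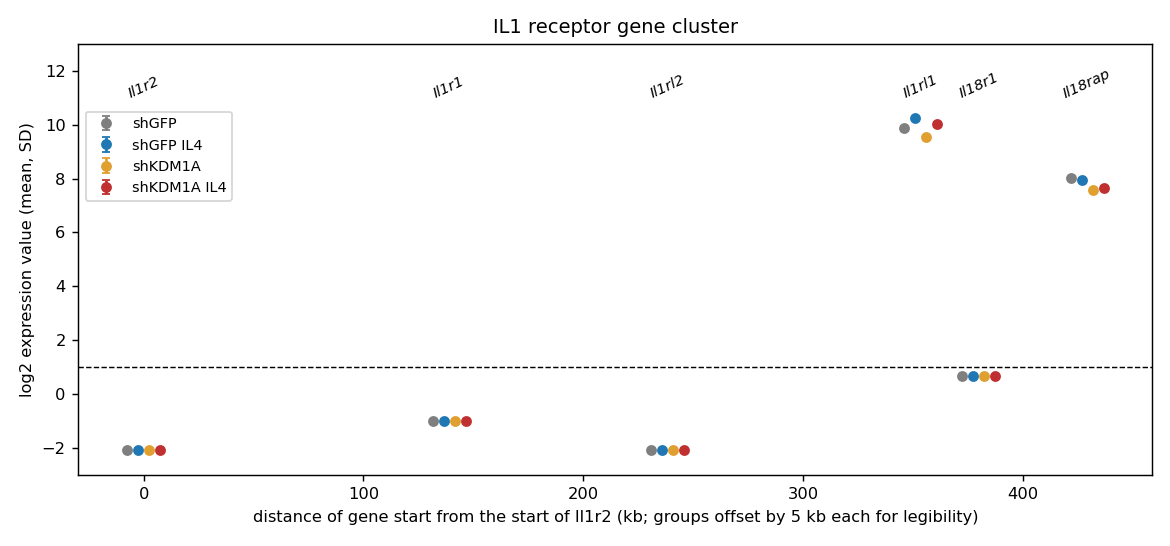
Mean log2 expression value (SD, n = 4 libraries, most bars smaller than the points) of the 6 genes of the IL1 receptor cluster against the distance of each gene's start from that of Il1r2. Il1rl1 and Il18rap lie well above the filter at 1 (dashed line), and the 4 genes around them lie below it in every group.

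Genes of the same pathways that do not carry an interleukin symbol were counted by list. The counts are to be read beside the shares of all genes called, 26.9% and 27.1% for IL4 in shGFP and shKDM1A cells and 38.2% and 40.7% between the lines without and with IL4. Of 7 tested receptor partners and relatives, IL4 raised 3 and lowered 1 in shGFP cells, and raised 1 in shKDM1A cells. Csf2rb, the common beta chain of the IL3, IL5 and GM-CSF receptors, changed by 0.36 in shGFP cells (SE 0.04, limma adjusted p = 9.2e-06) and was not called in shKDM1A cells, at 0.05. The difference between these responses was -0.31 (SE 0.06, limma adjusted p = 0.0078). Between the lines, 2 partners were higher and 2 lower without IL4, and 2 higher and 3 lower with it. Crlf2, the TSLP receptor chain that pairs with Il7r, was lower in shKDM1A cells, with log2 differences of -0.28 without and -0.31 with IL4. Ebi3, which joins Il27 to form the cytokine IL27, was higher by 0.22 and 0.25.

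Of 10 tested JAK-STAT genes, IL4 raised 3 and lowered 3 in shGFP cells and raised 1 and lowered 4 in shKDM1A cells. Jak2 rose by 0.55 and 0.41 (SE 0.05 in each, limma adjusted p = 2.1e-07 and 7.5e-06). Between the lines, 6 were higher and 1 lower without IL4, and 4 higher and 1 lower with it. Stat2 was higher in shKDM1A cells without IL4 by 0.55 (SE 0.03, limma adjusted p = 1.5e-10).

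Of 8 tested feedback genes, which damp cytokine receptor signals, IL4 raised 3 in shGFP cells, and raised 4 and lowered 1 in shKDM1A cells. Between the lines 1 was higher and 2 lower without IL4, and 4 were lower with it. Socs1 rose by 0.70 in shGFP and 0.37 in shKDM1A cells, a difference of -0.33 (SE 0.07, limma adjusted p = 0.015). Cish rose by 0.38 and 0.19, a difference of -0.19 (SE 0.03, limma adjusted p = 0.00078).

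Of 11 genes of IL1 receptor signalling, IL4 raised 1 and lowered 3 in shGFP cells and lowered 2 in shKDM1A cells. In shKDM1A cells 1 was higher and 3 lower without IL4, and 1 higher and 4 lower with it. The adaptor Myd88 was the 1 gene of this list whose IL4 response differed, by 0.20 (SE 0.05, limma adjusted p = 0.022), with -0.11 in shGFP and 0.09 in shKDM1A cells. The kinase gene Irak2 fell with IL4 by 0.23 and 0.24 on the log2 scale and was higher in shKDM1A cells by 0.23 and 0.22. Of 3 ligand processing genes, Furin rose with IL4 in both lines, by 0.33 and 0.34, and Casp4 fell in both. Casp1, which cleaves pro-IL18, was not called in any comparison, and with IL4 Casp4 was higher in shKDM1A cells by 0.10.

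For the ligands and receptors with the largest difference in IL4 response, the genes with the most similar values over the 16 libraries were found by Pearson r. They are a description, since the libraries share the 4 groups. Il1rl1 was closest to Clec5a (r = 0.9878), Dse (0.9864) and Havcr2 (0.9819). Il18rap was closest to Traf3ip3 (r = 0.9697), Ifi27 (0.9594) and Tlr2 (0.9555), and Il16 to Lrch3 (r = 0.9361), Slc25a37 (0.929) and Cep250 (0.9272). The likeness was lower for Il18, closest to Rgl2 (r = 0.8193).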

How the data were processed

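RNA-seq values of 16 RAW libraries, 4 groups of 4 by their labels, were analysed. The authors aligned reads to mm9, with HISAT2, Bowtie2 and HOMER named in the submitters' notes, counted exon reads of RefSeq genes on both strands with HOMER, condensed to genes, and used DESeq2 for their comparisons. Each library's values were deposited by the authors as log2 numbers with decimal commas, and how they were transformed is not given in the sources used here. Columns holding the authors' comparisons (fold changes, p-values) were not used, which leaves the BMDM table as a list of genes.

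The 12905 genes that reached 1 in 4 or more libraries were tested with limma 3.58.1 in R 4.3.3 (lmFit and eBayes on group means, 5 contrasts, two-sided, Benjamini-Hochberg adjustment over all genes tested, threshold 0.05). The study's methods state in general that replicates were biological, but the labels do not say which libraries came from separate cultures, so p-values measure the spread between these libraries. The members and lists were chosen with earlier results of these data known. Values per library are given for members called at least once and for the 3 ligands and 3 receptors of highest level per length. Exon overlaps are from GENCODE vM1 and promoters from RefSeq GRCm38.p6. The fit was tested on simulated data. The alternatives varied the filter, the model groups, a replicate block, normalizations, a trended prior, a fold limit, leaving out each library and, chosen after seeing the data, leaving out pairs of IL4-treated shKDM1A libraries. The IL1 receptor cluster was described after its values were seen. Samples of other assays were not used here.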

Additional observations from a re-analysis of the deposited data

Results flagged for a closer look

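In 9 of 112 groups of 4 libraries (8.04%), 1 library lay apart from the other three by Dixon's ratio, its gap to the nearest library divided by the range of the group. Chance gives such a ratio in about 1 of 20 groups, or 5%. For called members these were Il1rl1 in shKDM1A cells with IL4, where library 3 was lowest at 9.95 against 10.06 to 10.08 (ratio 0.855), and Il18rap in shKDM1A cells without IL4, where library 1 was highest at 7.65 against 7.54 to 7.55 (ratio 0.89). In Il17rc, library 3 of shKDM1A cells without IL4 was lowest at 8.80 against 8.92 to 8.94 (ratio 0.851). Il15ra was lowest in library 1 of shGFP cells without IL4, at 6.43 against 6.50 to 6.51 (ratio 0.912), and Il15 in library 3 of that group, at 4.53 against 4.56 to 4.57 (ratio 0.842). Among members with no call in the 4 comparisons, the low libraries were number 1 of shGFP cells without IL4 for Il12rb2 (ratio 0.858), number 4 of shKDM1A cells with IL4 for Il11 (ratio 0.862), number 1 of that group for Il27 at 5.81 (ratio 0.902) and number 3 of shKDM1A cells without IL4 for Il27ra (ratio 0.897).

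The IL4 response of Il1rn differed between the lines, shKDM1A minus shGFP, by 0.20 on the log2 scale (limma, adjusted p = 0.046), as a test of the difference itself. The call was lost in 14 of 24 alternative settings, 12 of them omissions of a single library, with adjusted p of up to 0.14, and values over all 24 were 0.14 to 0.26.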

How the results depend on the processing

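Counts of members called kept within 1.5 times the value reported under the filters, the restricted models, the normalizations, the trended prior and the omitted library pairs. Requiring a log2 change of at least 0.5 left 1 member for IL4 in shGFP cells and 0 for each of the other 4 contrasts. Leaving out each library in turn gave 12 to 14 members for IL4 in shGFP cells, 15 to 17 for IL4 in shKDM1A cells, 9 to 13 for shKDM1A without IL4, 12 to 14 with IL4, and 0 to 1 for the difference in IL4 response. The member called in that contrast was not always Il1rn: it was Il16 without library 1 of shGFP cells or library 2 of shKDM1A cells, both without IL4, Il1rl1 without library 3 of IL4-treated shKDM1A cells, and Il10 without the filter (0.05, adjusted p = 0.015). Il1rn lost its call there without any 1 of 12 libraries. Calls near the threshold also rested on single libraries: that of Il10rb between the lines without IL4 was lost without library 1 of shKDM1A cells (0.05, adjusted p = 0.064), that of Il21r without library 1 or 3 of shGFP or 1 or 4 of shKDM1A cells (-0.05 to -0.07), that of Il15 without any of 7 libraries and that of Il18 with IL4 without any of 11. No called value changed sign, and apart from the fold limit 39 of 53 stayed called under every setting. Single omissions also gave calls: for IL4 in shKDM1A cells, Il18rap (0.12) and Il15 (-0.10) without library 1 and Il11ra1 (0.22) without library 2 of the IL4-treated group; between the lines, Il15 with IL4 (0.08) without that library 2 and Il17ra without IL4 (-0.08) without library 2 of the untreated shKDM1A group. After subtraction of each group's mean, same-numbered libraries of different groups correlated at -0.34 to 0.27, with 3 of 24 pairs over 0.1. Differently numbered libraries were not compared in this way, so the check cannot settle whether the numbers pair the libraries. With the replicate number as a block, the counts were 14, 15, 11, 12 and 1 in the order above. Il16 for IL4 in shGFP cells, at -0.10, was called with the block and in 4 other settings. Weakly expressed members spread little on this scale, which limits what can be seen of them. Without the filter, limma called Il1b for IL4 in shGFP cells (0.03, adjusted p = 0.01). For IL4 in shKDM1A cells it called Il10 (0.06, adjusted p = 8.4e-05) and Il31ra (0.02, adjusted p = 0.048). Between the lines with IL4 it called Il10 (0.05, adjusted p = 1e-04).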
